A study of Mus musculus with 653 samples.

Results

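The genes described here are 7 regulators of migratory muscle progenitors, *Pax3*, *Lbx1*, *Pax7*, *Myf5*, *Myod1*, *Six4* and *Eya1*, out of 54195 genes in the count table. They were followed across 653 single cells sorted from mouse embryonic liver, and most closely in the 33 cells with more than 10 reads of *Pax3*. These 33 cells were chosen by their measured *Pax3* reads, so that their *Pax3* levels are a description and are not tested. The 2 lowest of them had 14 and 23 reads of *Pax3*, and the highest cells outside had 9 and 3. With more than 10 reads of both *Pax3* and *Lbx1* there were 23 cells.

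The study asked which cells of the early liver express *Lgr5*, the R-spondin receptor that marks epithelial stem cells in several tissues. Embryos came from males carrying Lgr5-EGFP-IRES-creERT2, which places GFP under the *Lgr5* locus, on a C57BL/6 background crossed with MF1 females, and no group lacked this cross. Livers of E10.5 and E13.5 were dissociated and cells that carried the Liv2 antigen but neither CD31 nor CD45 were sorted, either all of them (bulk) or those with GFP (Lgr5-GFP+). At E10.5 this gave 203 bulk and 211 Lgr5-GFP+ cells, and at E13.5 159 bulk and 80 Lgr5-GFP+ cells, all given the label of hepatoblasts by the submitters. GFP protein can outlast the transcript that made it, so that a GFP+ cell need not hold *Lgr5* reads.

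Muscles of the limbs, the tongue and the diaphragm are built by cells that leave the lateral lip of the dermomyotome and migrate. *Pax3* is the paired-box factor that specifies these cells and drives their receptor tyrosine kinase *Met*, whose ligand HGF is released along the route. *Lbx1* is the homeobox factor that marks the migrating cells. Once settled, they express *Myf5* and *Myod1*, the basic helix-loop-helix factors that commit cells to muscle, then *Myog*, which starts differentiation. *Pax7* is the paralogue of *Pax3* that keeps later progenitors and satellite cells, and *Six4* and *Eya1* are a homeobox factor and a phosphatase cofactor that act together upstream of *Pax3* and of the commitment genes.

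In Smart-seq2 the cDNA of each cell is amplified in full length without molecular identifiers. Cells held between 463347 and 2279700 reads on genes (median 1192740), spread over 5 library pools, and the median number of detected genes was 4515, 4488, 6606, 6550 and 6280.5 in pools 1 to 5. The labels name no animal, litter or sort date, so each of the 4 groups was 1 sample and no test was run. Each share of cells carries its exact 95% interval (Clopper-Pearson), and such intervals reflect the error of counting alone, because cells of 1 sort and amplified reads are not independent. A share of 0 is given with the share that 3 cells would make. No 2 cells held identical counts, although 230 of 365 index pairs were used in more than 1 pool.

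On GRCm38, *Pax3* (ENSMUSG00000004872) spans chr1:78101267-78197134 on the minus strand and *Lbx1* (ENSMUSG00000025216) spans chr19:45232684-45235812, also minus. *Pax7* (ENSMUSG00000028736) lies at chr4:139737062-139833528, minus strand. The commitment genes are *Myf5* (ENSMUSG00000000435) at chr10:107482908-107486134, minus strand, and *Myod1* (ENSMUSG00000009471) at chr7:46376474-46379099, plus strand. *Six4* (ENSMUSG00000034460) lies at chr12:73099609-73113456 and *Eya1* (ENSMUSG00000025932) at chr1:14168954-14310235, both minus. Exons of none of the 7 overlap an exon of another annotated gene, so that no read of theirs is shared with a neighbour.

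Promoter windows of 250 bases before the RefSeq start (GRCm38.p6) were given for *Myf5*, *Pax7* and *Six4*, that is for 3 of the 7 genes, and for *Myog*. The windows of *Myf5*, which opens commitment, and of *Myog*, which follows it, are shown because the E10.5 and E13.5 cells differ in how these genes combine. The *Myf5* window is chr10:107486135-107486384 on the minus strand and the *Myog* window chr1:134289754-134290003 on the plus strand, whose last bases from 134289989 lie in the first exon of the GENCODE annotation. Capitals mark the E-box CANNTG, bound by the basic helix-loop-helix factors, and TCAGGTT, a form of the MEF3 site bound by *Six4*, searched on both strands.
Myf5: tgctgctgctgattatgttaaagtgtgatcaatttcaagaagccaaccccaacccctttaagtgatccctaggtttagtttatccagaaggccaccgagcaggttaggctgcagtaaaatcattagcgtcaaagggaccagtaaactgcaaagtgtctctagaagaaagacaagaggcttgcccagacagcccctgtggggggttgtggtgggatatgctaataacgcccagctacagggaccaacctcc
Myog: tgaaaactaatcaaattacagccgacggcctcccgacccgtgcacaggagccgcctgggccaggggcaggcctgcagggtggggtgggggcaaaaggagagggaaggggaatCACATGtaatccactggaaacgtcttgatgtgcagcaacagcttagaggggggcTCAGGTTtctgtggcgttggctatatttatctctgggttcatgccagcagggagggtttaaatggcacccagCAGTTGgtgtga
The *Myog* window held 2 E-boxes, one in its middle part and one near the RefSeq start, and 1 copy of TCAGGTT, whereas the *Myf5* window held neither. The windows of *Pax7* and *Six4* held 0 E-boxes, and 1 of the 2 *Six4* windows held TCAGGTT. Of all 32851 windows of this length, 66.2% held an E-box and 3.49% held TCAGGTT, so an E-box is common in such windows and the match describes the letters alone.

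*Pax3* was read mostly in GFP+ cells of E10.5. More than 10 reads were present in 25 of 211 E10.5 Lgr5-GFP+ cells (11.8%, 7.82 to 17.0) and in 3 of 203 E10.5 bulk cells (1.48%, 0.306 to 4.26). At E13.5, 5 of 80 Lgr5-GFP+ cells passed (6.25%, 2.06 to 14.0) and 0 of 159 bulk cells did, which allows a share of up to 1.89%. Over both sorts the share was 6.76% of 414 cells at E10.5 (4.54 to 9.63) and 2.09% of 239 cells at E13.5 (0.683 to 4.81), and these intervals overlap. *Pax3* cells held 14 to 3496 reads of *Pax3*, with a median of 481, while 34 further cells held a single read. In reads per 1000000 (RPM) summed over all cells of a group, *Pax3* stood at 9.70 in E10.5 bulk, 90.5 in E10.5 Lgr5-GFP+ and 23.5 in E13.5 Lgr5-GFP+ cells. Of 221 cells with at least 3 erythroid genes and fewer than 3 hepatoblast and 3 mesenchymal ones, 1 passed for *Pax3* (0.452%, 0.0115 to 2.50), at a median of 1144430 reads against 1228630 in the other cells. That cell, with 77 reads of *Pax3*, 319 of *Myf5* and 1041 of *Six4*, is 1 of the 33, so the erythroid set holds cells with muscle genes and is not a clean background.

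**Figure D1:**
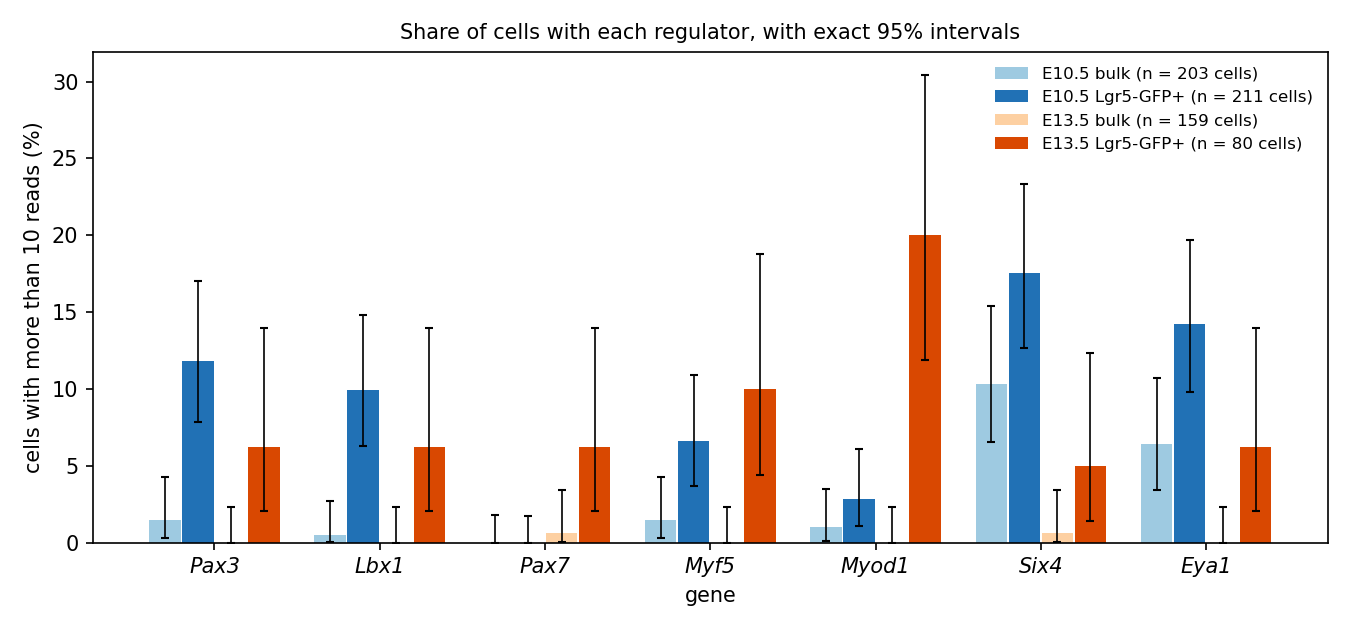
Share of cells with more than 10 reads of each of the 7 genes (y axis, percent of cells) in the 4 groups of stage and sort, with exact 95% intervals as error bars. *Pax3* and *Lbx1* stand highest in E10.5 Lgr5-GFP+ cells (11.8% and 9.95%), whereas *Pax7*, *Myf5* and *Myod1* stand highest in E13.5 Lgr5-GFP+ cells (6.25%, 10% and 20%).

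*Lbx1* followed *Pax3* at a lower level. It passed in 21 E10.5 Lgr5-GFP+ cells (9.95%, 6.27 to 14.8) and in 1 E10.5 bulk cell (0.493%, 0.0125 to 2.71). At E13.5 it passed in 5 Lgr5-GFP+ cells (6.25%) and in 0 bulk cells. Of 22 E10.5 cells with *Lbx1*, 21 were *Pax3* cells, and the remaining one was a bulk cell with 167 reads of *Lbx1*, 213 of *Myf5*, 50 of *Myod1* and 1161 of *Myog*. Reads of *Lbx1* were nearly all in cells that passed, since 33 cells held any read and 27 held more than 10, between 11 and 619 (median 91). None of the 221 erythroid cells passed for *Lbx1*.

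*Pax7* passed at E13.5 and in no cell of E10.5. At E10.5 it passed in 0 of 203 bulk and 0 of 211 Lgr5-GFP+ cells, which allows up to 1.48% and 1.42%, and its highest cell held 4 reads. At E13.5 it passed in 5 Lgr5-GFP+ cells (6.25%, 2.06 to 14.0), with a summed level of 54.6 RPM. The cells with most *Pax7* held 1796, 1768 and 1225 reads, and these held no *Pax3* read, 0, 24 and 37 reads of *Myf5*, and at most 2 reads of *Myog*. A single E13.5 bulk cell passed with 33 reads of *Pax7* (0.629%, 0.0159 to 3.45), beside 1226 reads of the erythroid factor *Klf1*.

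*Myf5* was present at both stages and *Myod1* mostly at the later one. *Myf5* passed in 3 bulk (1.48%) and 14 Lgr5-GFP+ cells (6.64%, 3.67 to 10.9) at E10.5, and in 8 Lgr5-GFP+ cells at E13.5 (10%, 4.42 to 18.8). *Myod1* passed in 2 bulk (0.985%) and 6 Lgr5-GFP+ cells (2.84%, 1.05 to 6.09) at E10.5, and in 16 Lgr5-GFP+ cells at E13.5 (20%, 11.9 to 30.4). The intervals of the GFP+ cells at the 2 stages overlap for *Myf5* and lie apart for *Myod1*, whose summed level was 3.93 RPM at E10.5 and 164 RPM at E13.5. Within pools 3 to 5 the *Myod1* intervals overlap as well, with 6 of 119 (5.04%, 1.87 to 10.7) and 4 of 40 cells (10%, 2.79 to 23.7). Neither gene passed in any of the 159 E13.5 bulk cells. *Myog*, the differentiation gene next in the series, passed in 5 E10.5 (2.37%) and 13 E13.5 Lgr5-GFP+ cells (16.3%, 8.95 to 26.2), and its highest cell held 34540 reads.

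*Six4* and *Eya1* were not limited to *Pax3* cells. *Six4* passed in 21 bulk (10.3%, 6.52 to 15.4) and 37 Lgr5-GFP+ cells (17.5%, 12.7 to 23.4) at E10.5, and *Eya1* in 13 (6.40%, 3.45 to 10.7) and 30 (14.2%, 9.80 to 19.7). At E13.5 *Six4* passed in 1 bulk and 4 Lgr5-GFP+ cells, and *Eya1* in 0 bulk and 5 Lgr5-GFP+ cells (6.25%). Among the 386 E10.5 cells without *Pax3*, 42 had *Six4* (10.9%, 7.96 to 14.4), and 35 of these carried more than 10 reads of at least 3 mesenchymal genes, 7 of at least 3 mesothelial genes and 5 of at least 3 hepatoblast genes. Of the 19 such cells with *Eya1* (4.92%), 16 carried the mesenchymal and 1 the hepatoblast genes. *Six4* and *Eya1* each passed in 4 of the 221 erythroid cells (1.81%).

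In the E10.5 *Pax3* cells the members were often read together. Of 28 cells, 21 had *Lbx1* (75%, 55.1 to 89.3), 16 had *Myf5* (57.1%, 37.2 to 75.5), 7 had *Myod1* (25%, 10.7 to 44.9) and 0 had *Pax7*, which allows up to 10.7%. *Eya1* passed in 24 (85.7%, 67.3 to 96.0), *Six4* in 16 (57.1%) and *Met* in 15 (53.6%). Outside these cells, 1 of 386 E10.5 cells had *Lbx1* (0.259%), 1 had *Myf5* and 1 had *Myod1*. Either commitment gene passed in 17 *Pax3* cells (60.7%, 40.6 to 78.5), and all 7 cells with *Myod1* but 1 also had *Myf5*. The *Pax3* cells were therefore mixed in which genes of the muscle series they held.

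The combinations of *Pax3*, *Lbx1*, *Pax7*, *Myf5*, *Myod1* and *Myog* show this mixture. *Pax3* with *Lbx1* and no later gene was seen in 8 cells, *Pax3* with *Lbx1* and *Myf5* in 7, and *Pax3* with *Lbx1*, *Myf5*, *Myod1* and *Myog* in 4. *Pax3* alone was seen in 3 cells and *Pax3* with *Myf5* in 2, and 4 further combinations were seen in 1 cell each. *Myog*, seen in 6 *Pax3* cells, came with *Myf5* in each of them.

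**Figure D2:**
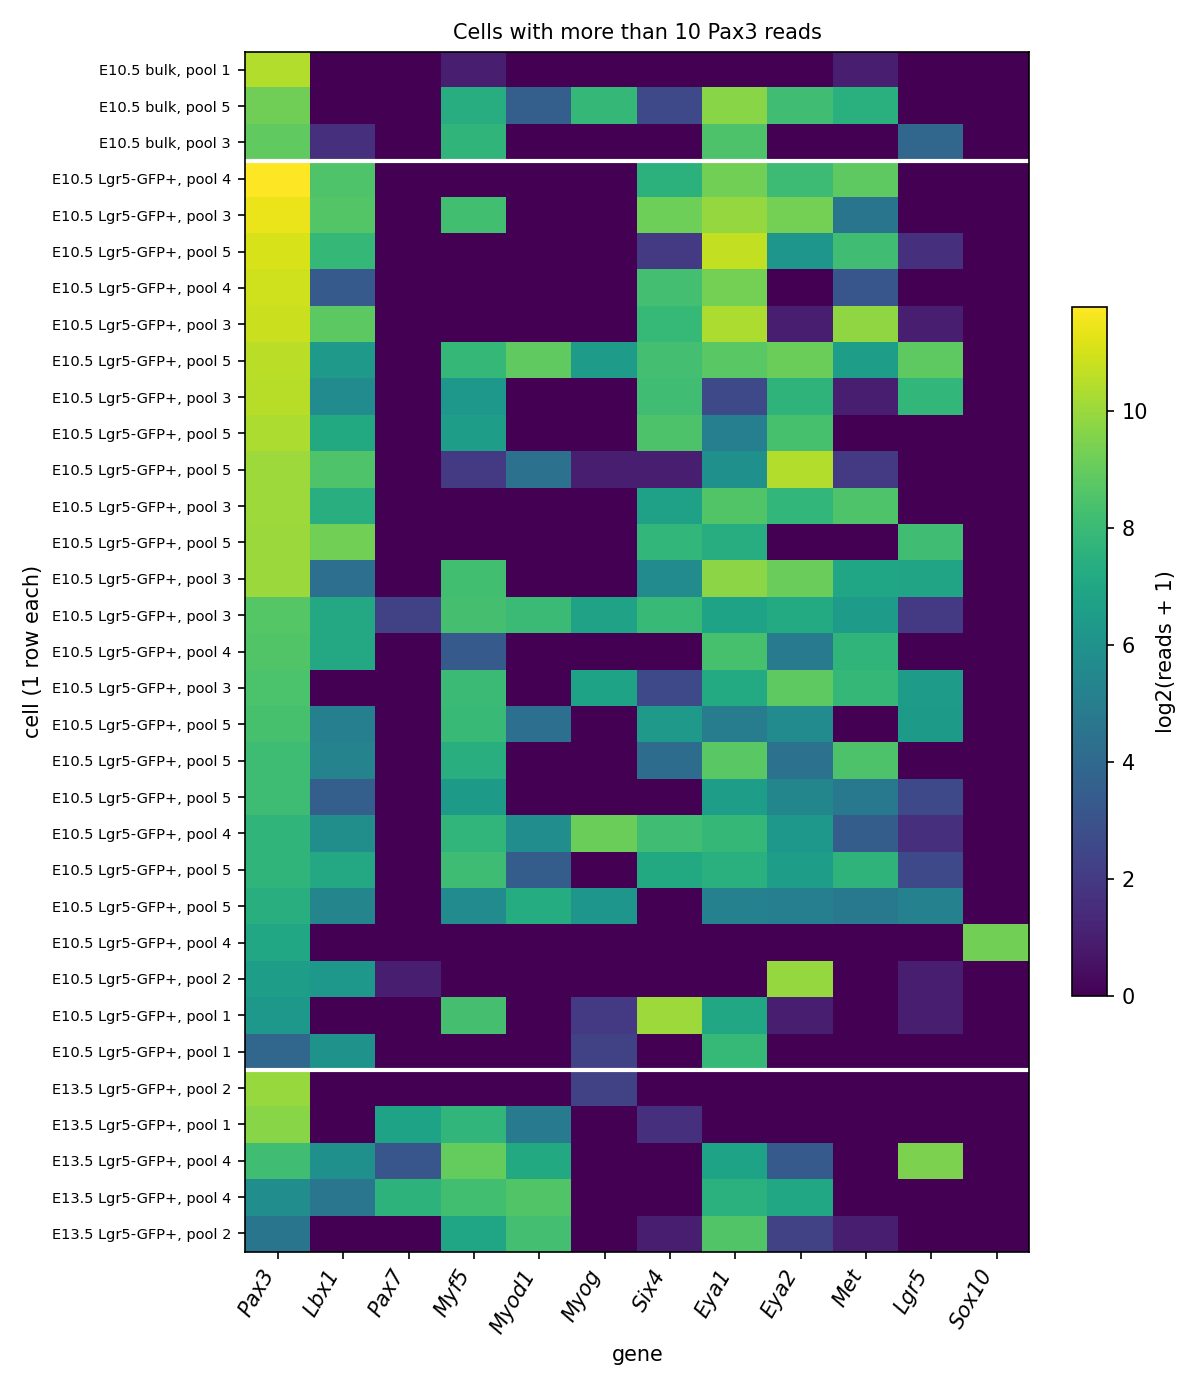
Reads of 12 genes (columns, colour on a log2 scale of reads plus 1) in the 33 cells with more than 10 reads of *Pax3* (rows, ordered by *Pax3* within each group), with white lines between 3 E10.5 bulk, 25 E10.5 Lgr5-GFP+ and 5 E13.5 Lgr5-GFP+ cells. *Lbx1* is above 10 reads in 21 of the 25 E10.5 Lgr5-GFP+ cells, *Pax7* in 2 E13.5 cells and no E10.5 cell, and *Six4* and *Met* in none of the E13.5 cells.

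In the 25 E10.5 Lgr5-GFP+ *Pax3* cells, *Pax3* ranged from 14 to 3496 reads (median 402). *Lbx1* ranged from 0 to 619 reads and *Myf5* from 0 to 319, each with a median of 77. The median of *Myod1* was 0 reads, with 477 in the highest cell. *Lbx1* thus passed in 21, *Myf5* in 14 and *Myod1* in 6 of the 25 cells. *Six4* ranged from 0 to 1041 reads (median 105) and *Eya1* from 0 to 1643 (median 177).

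Levels of different genes were compared per length, as reads per kilobase of exon and per 1000000 reads (RPKM) summed over the cells. In E10.5 *Pax3* cells *Pax3* stood at 118 RPKM, *Myf5* at 44.7, *Lbx1* at 41.0, *Eya1* at 36.5, *Myog* at 22.2, *Myod1* at 15.2, *Six4* at 11.53 and *Pax7* at 0.0240. The levels of *Myf5*, *Lbx1* and *Eya1* are close to one another, and each sum rests on few cells. In the 5 E13.5 *Pax3* cells the order was *Myf5* (100.5 RPKM), *Myod1* (84.5), *Pax3* (65.0), *Eya1* (15.9), *Pax7* (9.82), *Lbx1* (6.14) and *Six4* (0.0508). In these sums the commitment genes stood above *Pax3* at E13.5 and below it at E10.5, in cells chosen by their *Pax3* reads. This order did not hold in each E13.5 cell. The cells with 1006 and 821 reads of *Pax3* held 0 and 215 of *Myf5* and 0 and 29 of *Myod1*.

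Partner genes were counted in the cells with *Lbx1* according to *Myf5*, and for each gene given here the intervals of the 2 shares overlap. Among the 21 E10.5 *Pax3* cells with *Lbx1*, 12 had *Myf5* and 9 did not. *Meox1*, a homeobox gene of the somite, passed in 8 of 12 with *Myf5* and in 1 of 9 without it, and the intermediate filament gene *Des* in 8 and 2. *Sim2*, a helix-loop-helix gene of limb muscle precursors, passed in 3 and 8. *Six4* passed in 10 and 4, *Met* in 8 and 5, and *Eya1* and *Tcf15* each in 11 and 8. At least 1 of *Hoxa9*, *Hoxa10* and *Hoxa11*, Hox genes of the limb level, passed in 3 of 12 cells with *Myf5* (25%, 5.49 to 57.2) and in 6 of 9 without (66.7%, 29.9 to 92.5). *Lbx1* itself held a median of 53 reads (11 to 392) with *Myf5* and 229 (65 to 619) without it, and *Pax3* 363 (166 to 2782) and 1057 (14 to 3496), and for both genes the ranges overlap.

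Hox genes of the limb level were also counted over all E10.5 *Pax3* cells. *Hoxa11* passed in 8 of 28 *Pax3* cells and in 3 of 386 others, *Hoxa10* in 10 of each set, and *Hoxa9* in 9 and 19. Among genes of more anterior position, *Hoxb1* passed in 0 and 33, *Hoxc4* in 3 and 94, and *Hoxc5* in 3 and 76. Not all genes of the list went this way, since *Hoxa2* passed in 10 and 53, *Hoxb4* in 7 and 47 and *Hoxa7* in 6 and 33, while the posterior *Hoxb9*, *Hoxd9* and *Hoxd10* passed in 0 *Pax3* cells. Of 20 tested Hox genes, 4 were at least 4-fold higher and 11 lower in the summed level of *Pax3* cells. Of all 15676 genes tested, 3.41% were at least 4-fold higher and 26.1% lower. Of the 39 Hox genes listed, 16 had 0 reads in every cell of the series, among them *Hoxa5*, *Hoxb6*, *Hoxc6* and *Hoxc9*. Position along the body axis is therefore covered in part only. Of all E10.5 cells with *Lbx1*, 10 of 22 had *Hoxa10*, and of those with *Myf5*, 4 of 17 had it. No E13.5 *Pax3* cell had more than 10 reads of *Hoxa9*, *Hoxa10* or *Hoxa11*. Hox reads were few in the 234 other E13.5 cells too. The summed level of the Hox list was 14.2 RPM there and 270 RPM in the other E10.5 cells.

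Partners of the members in the dermomyotome were compared as summed levels of the 28 E10.5 *Pax3* cells over the other 386 E10.5 cells. This contrast is the one by which the cells were chosen, and nothing is read from its counts. Of 15676 genes tested, 3.41% were at least 4-fold higher in the *Pax3* cells and 26.1% at least 4-fold lower, with a median log2 ratio of -0.46. On this scale *Pax3* stood 13.02 higher, *Lbx1* 8.16, *Myf5* 7.63, *Myod1* 7.24, *Eya1* 4.12 and *Six4* 3.14, whereas *Pax7* did not pass the filter of more than 10 reads in at least 3 cells. Of 25 dermomyotome and hypaxial partners, 22 were tested, 6 were at least 4-fold higher and 4 lower, with a median of 0.39. The higher ones included *Tcf15*, a factor of the somite epithelium (6.46), *Eya2* (5.13), *Six2* (4.63), *Meox2* (3.66) and *Eya4* (2.82), and the lower ones were *Tbx1*, *En1*, *Mef2c* and *Tbx5*. *Tcf15*, *Dach1* and *Eya4* each passed in 23 of the 28 cells.

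Of the genes of delamination and migration, 24 were tested, 3 were at least 4-fold higher and 3 lower (median -0.17). Higher were *Gdnf*, a ligand of *Ret* (4.14), *Met* (3.03) and the integrin subunit *Itga4* (2.23), and lower were *Nrp1*, *Fgfr4* and *Hgf*. *Hgf*, the ligand of *Met*, had 0 reads in the *Pax3* cells. *Met* was not particular to them, since it passed in 27 other E10.5 cells, of which 14 carried at least 3 hepatoblast genes. Of 17 tested genes of muscle differentiation, 5 were at least 4-fold higher and 3 lower (median 0.37). *Myog* stood at 3.59, the slow troponin gene *Tnnt1* at 2.03, and the titin gene *Ttn* was also at least 4-fold higher. A single bulk cell held 499 reads of *Ttn* and 584 of *Tnnt1*. Within Lgr5-GFP+ cells alone, 15 such genes were tested, *Myog* and *Des* were at least 4-fold higher and 3 were lower. Of all 14197 genes tested within this sort, 3.56% were at least 4-fold higher and 23% at least 4-fold lower. Over *Pax3* cells of both sorts, 1 of 23 tested genes of progenitor maintenance was higher, the receptor gene *Megf10* (4.99), and 9 were lower (median -0.39). Of 17 tested genes of limb and diaphragm connective tissue 0 were higher and 7 lower (median -1.14), and 0 of 11 cell cycle genes and 0 of 6 reference genes were 4-fold apart in either direction. Among genes outside these lists that passed in at least 50% of the cells of the higher set, *Inpp4b* (4.67), *Tmem132d* (4.18) and *Hs6st3* (3.94) had some of the largest ratios, and *Apoe* (-5.10), *Dlk1* (-4.49) and *Col3a1* (-2.44) were among the lowest.

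The submitters' label of hepatoblast went against the genes of the E10.5 *Pax3* cells. None of the 28 E10.5 *Pax3* cells had more than 10 reads of 3 or more of 15 hepatoblast genes, against 68 of the 386 other E10.5 cells, and at most 2 of these genes passed in any cell. *Alb* had 12 reads and *Afp* 16 reads over all 28 cells together, and *Hnf4a* had 4. The summed level of the 15 genes was 0 to 162 RPM per *Pax3* cell (median 7.63). Among the others it ran from 0 to 38431 RPM (median 155), so many of them lay within the same range. Most of the other E10.5 cells also did not reach the count of 3 genes, so it does not set the *Pax3* cells apart from those. At E13.5 the count passed in 0 of 5 *Pax3* cells (1.75 to 331 RPM per cell) and in 4 of 234 others (1.71%), so it does not set the later *Pax3* cells apart. *Ptprc*, which encodes CD45, had 0 reads in all 33 cells, and *Pecam1*, which encodes CD31, passed in 3 (60, 11 and 81 reads). At least 3 of 12 mesenchymal genes passed in 25 of 28 E10.5 and 5 of 5 E13.5 *Pax3* cells, and in 263 of 386 and 40 of 234 other cells.

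Genes of other cell types were present in some *Pax3* cells. At least 3 erythroid genes passed in 5 of 28 E10.5 *Pax3* cells (other E10.5 cells 116 of 386) and in 2 of 5 E13.5 *Pax3* cells (other E13.5 cells 179 of 234), and their summed level per *Pax3* cell was 0 to 354.03 RPM at E10.5 and 16.8 to 3870 RPM at E13.5. The E13.5 cell with 23 reads of *Pax3* had 8 erythroid, 6 megakaryocyte, 4 endothelial, 3 leukocyte and 10 mesenchymal genes. At least 3 neural crest genes passed in 2 of 28 E10.5 *Pax3* cells. In 1 of them, an E10.5 Lgr5-GFP+ cell with 129 reads of *Pax3*, *Sox10* had 623 reads and *Tfap2b* 344, 10 of 14 neural crest genes passed, and no other member did. *Pax3* is also a neural crest gene, so that this cell is counted among the 33 by its *Pax3* reads alone. Without both cells, *Lbx1* passed in 76.9% and a commitment gene in 61.5% of the E10.5 *Pax3* cells.

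The 3 bulk *Pax3* cells of E10.5 held no *Lbx1* above 10 reads. The first had 1359 reads of *Pax3*, 1003 of *Meox1* and 1213 of *Meox2*, and 0 of *Lbx1*, *Myod1* and *Eya1*. The second had 596 reads of *Pax3*, 158 of *Myf5*, 11 of *Myod1*, 811 of *Eya1* and 225 of *Myog*, with 712 of *Des*, 584 of *Tnnt1* and 499 of *Ttn*. The third had 481 reads of *Pax3*, 210 of *Myf5* and 14 of *Lgr5*, and *Eya1* passed in it as well. These cells thus ranged from a cell with both *Meox* genes and no commitment gene to one with sarcomere transcripts. *Lbx1* stood at 113 RPM in the 25 Lgr5-GFP+ *Pax3* cells and at 2 reads in all 3 bulk cells together, and *Six4* at 139 RPM and 5 reads. Of 9164 genes tested between the sorts, 40% were at least 4-fold higher and 7.59% at least 4-fold lower in Lgr5-GFP+ cells (median 0.87), and of the 6 members tested, *Lbx1*, *Myod1* and *Six4* were higher. With 3 bulk cells this comparison is a description of those cells, and 4-fold differences were common in it.

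*Lgr5* was read in *Pax3* cells and in other cells of the same sort. Among the E10.5 Lgr5-GFP+ cells, *Lgr5* passed in 7 of 25 *Pax3* cells (28%, 12.1 to 49.4) and in 55 of 186 others (29.6%, 23.1 to 36.7), at summed levels of 41.3 and 68.7 RPM. Outside the *Pax3* cells, cells with at least 3 hepatoblast genes had *Lgr5* in 24 of 61 (39.3%, 27.1 to 52.7; 99.2 RPM), and cells with at least 3 mesenchymal and fewer than 3 hepatoblast genes in 25 of 99 (25.3%, 17.1 to 35.0; 29.8 RPM). All these intervals overlap. Pools were not held equal in these shares. In pools 3 to 5, *Lgr5* passed in 7 of 22 *Pax3* cells and in 50 of all 119 E10.5 Lgr5-GFP+ cells. In pools 1 and 2 it passed in 0 of 3 *Pax3* cells and in 12 of all 92 cells. In pools 3 to 5 the share was thus lower in the *Pax3* cells, with overlapping intervals. With 3 *Pax3* cells, pools 1 and 2 do not settle a direction. The *Pax3* cells are also part of both totals. The near-equal shares over all pools therefore do not show that *Lgr5* was as frequent in *Pax3* cells as in others. Reads of *Lgr5* in the 25 *Pax3* cells were 467, 288, 219, 117, 91, 85 and 35 in the cells that passed and at most 5 in the rest, with a median of 1. Of the 15 *Pax3* cells with *Myf5* or *Myod1* in this sort, 6 had *Lgr5* (40%, 16.3 to 67.7), and of the 10 without them 1 did (10%, 0.253 to 44.5), again with overlapping intervals.

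**Figure D3:**
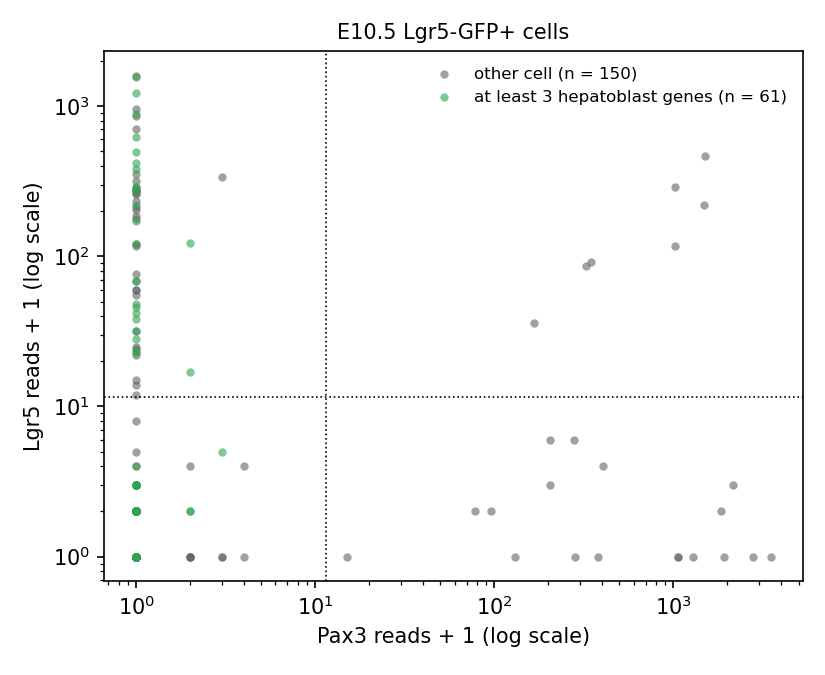
Reads of *Lgr5* (y axis) against reads of *Pax3* (x axis) in the 211 E10.5 Lgr5-GFP+ cells, both as reads plus 1 on log axes, with dotted lines at the limit of 10 reads and green points for the 61 cells with at least 3 hepatoblast genes. The 25 *Pax3* cells lie right of the limit, 7 of them also above it, and no green point is among them.

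At E13.5, *Lgr5* passed in 1 of 5 *Pax3* cells, with 702 reads, and in 2 of the 75 other Lgr5-GFP+ cells. None of the 21 Lgr5-GFP+ cells of E13.5 that had a muscle gene without *Pax3* passed (0%, up to 14.3%), and their highest value was 2 reads. In Lgr5-GFP+ cells as a whole *Lgr5* passed in 29.4% at E10.5 (23.3 to 36.0) and in 3.75% at E13.5 (0.780 to 10.6).

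The 5 *Pax3* cells of E13.5 were all GFP+ and each had its own combination. The cell with 1006 reads of *Pax3* had no other member, but 535 reads of *Vgll2* and 7080 of *Cdkn1c*, the p57 cell cycle inhibitor. The cell with 821 reads had 113 of *Pax7*, 215 of *Myf5* and 29 of *Myod1*, beside 925 of *Des* and 833 of *Tnnt1*. The cell with 285 reads had 59 of *Lbx1*, 8 of *Pax7*, 500 of *Myf5*, 143 of *Myod1* and 112 of *Eya1*. These first 3 run from *Pax3* without a commitment gene to *Pax3* with both. The cell with 53 reads of *Pax3* had 24 of *Lbx1*, 192 of *Pax7*, 298 of *Myf5*, 383 of *Myod1* and 183 of *Eya1*. The cell with 23 reads, which also carried the blood and endothelial genes given above, had 126 of *Myf5*, 300 of *Myod1* and 379 of *Eya1*. *Myf5* and *Myod1* thus passed together in 4 of 5 (80%, 28.4 to 99.5), *Lbx1* and *Pax7* each in 2 of 5, and *Six4*, *Met* and *Myog* in none.

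Most E13.5 cells with a muscle gene lacked *Pax3*. At least 1 of *Pax3*, *Lbx1*, *Pax7*, *Myf5*, *Myod1* and *Myog* passed in 26 of 80 Lgr5-GFP+ cells (32.5%, 22.4 to 43.9) and in 2 of 159 bulk cells (1.26%, 0.153 to 4.47). At E10.5 the counts were 25 of 211 (11.8%) and 5 of 203 (2.46%, 0.804 to 5.65). Of the 26 cells, *Myod1* with *Myog* was the combination of 5, *Myog* alone of 5, *Myod1* alone of 4, *Lbx1* with *Myod1* and *Myog* of 2, and *Pax7* with *Myf5* of 2. *Pax7* and *Myog* passed together in no cell, and neither did *Pax3* and *Myog*. All 5 cells with *Lbx1* had *Myod1*, and 3 of them had *Myog*. Of 8 cells with *Myf5*, 5 had *Myod1* and 1 had *Myog*. Of all 14 cells with *Myog* at E13.5 1 had *Myf5*, and of the 8 at E10.5 7 did. The 2 bulk cells had 15 reads of *Myog* with 1909 of *Klf1*, and the 33 reads of *Pax7* given above.

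**Figure D4:**
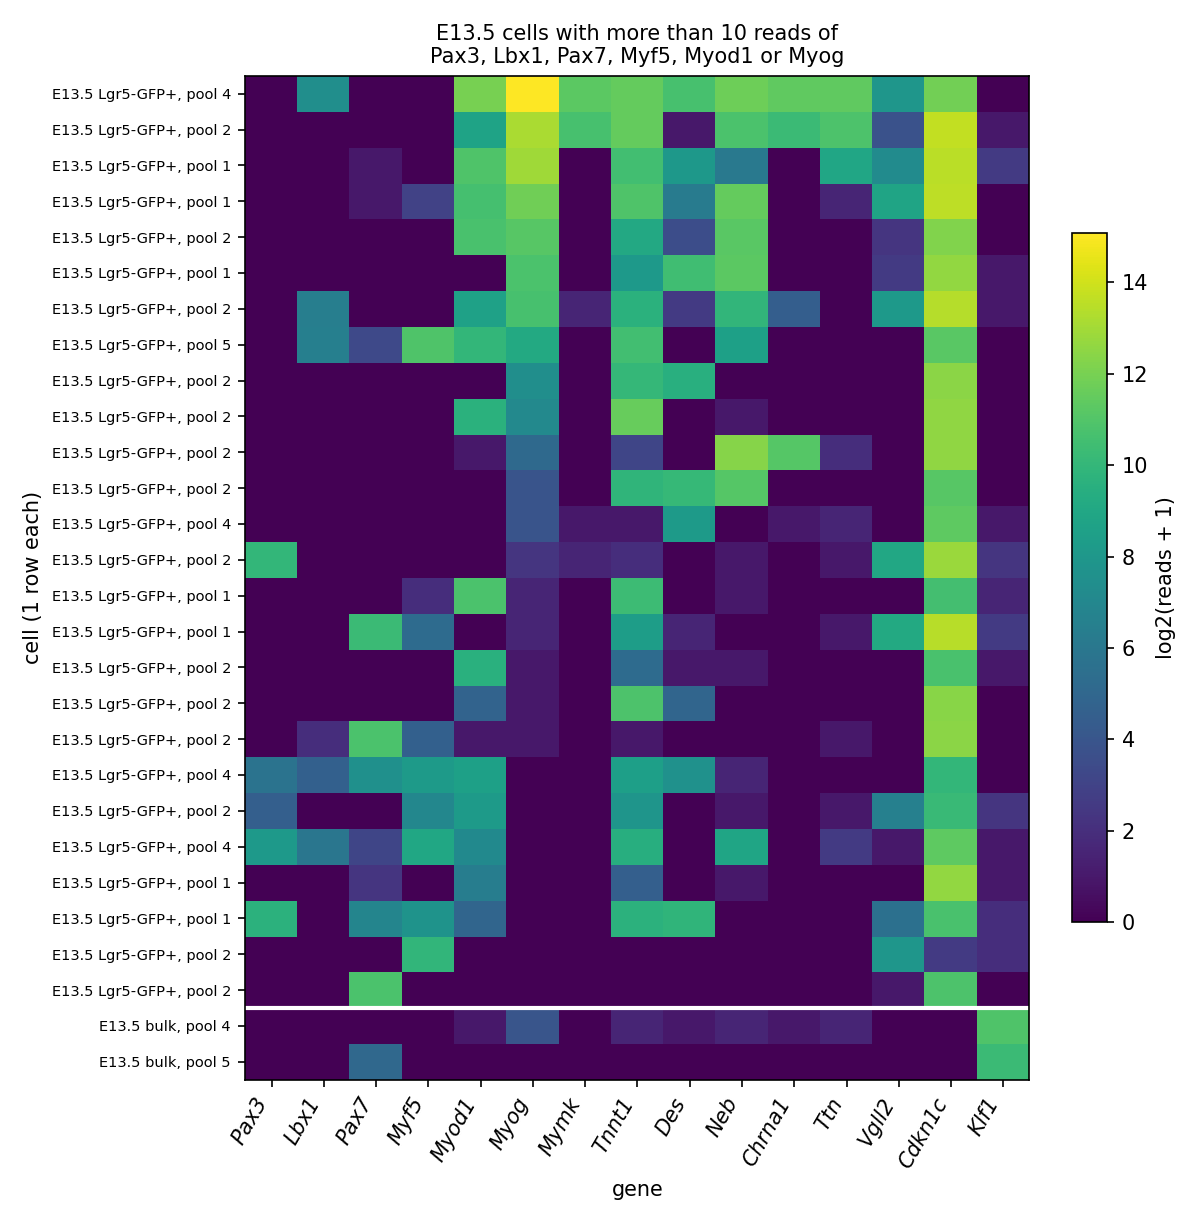
Reads of 15 genes (columns, colour on a log2 scale of reads plus 1) in the 28 E13.5 cells with more than 10 reads of at least 1 of *Pax3*, *Lbx1*, *Pax7*, *Myf5*, *Myod1* and *Myog* (rows, ordered by *Myog*), with 26 Lgr5-GFP+ cells above the line and 2 bulk cells under it. No cell with more than 10 reads of *Myog* has more than 10 of *Pax3* or *Pax7*, and the 2 bulk cells hold *Klf1*.

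The cell with most *Myog* held 177 reads of *Lbx1*, 4017 of *Myod1* and 34540 of *Myog* itself, with 2648 of the acetylcholine receptor gene *Chrna1*, 2705 of *Ttn* and 2488 of the fusion gene *Mymk*. The cell with most *Myf5* (1910 reads) had 91 of *Lbx1*, 996 of *Myod1* and 564 of *Myog*. Median reads over the 26 cells were 113.5 for *Myod1*, 9 for *Myog* and 0 for each other member. Of the 26 cells, *Cdkn1c* passed in 25, *Tnnt1* in 20, *Eya4* in 12, *Des* and *Neb* in 11 each, *Vgll2* in 10 and *Met* in 2. In the 54 other E13.5 Lgr5-GFP+ cells the counts were 30 for *Cdkn1c*, 9 for *Tnnt1*, 1 for *Eya4*, 2 for *Des*, 3 for *Neb*, 3 for *Vgll2* and 4 for *Met*. At least 3 erythroid genes passed in 10 of the 26 and 23 of the 54 cells, and at least 3 endothelial genes in 1 and 18.

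The summed levels of the members in *Pax3* cells were set side by side for both stages. In summed RPM from E10.5 to E13.5, *Pax3* went from 728 to 402, *Lbx1* from 102 to 15.3 and *Eya1* from 285 to 124. *Myf5* went from 93.1 to 209 RPM and *Myod1* from 28.2 to 157. *Six4* stood at 125 RPM at E10.5 and at 3 reads, or 0.552 RPM (exact Poisson interval 0.114 to 1.61), at E13.5. *Six4* is thus the member with the fewest reads in the later *Pax3* cells. *Pax7*, with 5 reads in 28 cells and 313 reads in 5, did not pass the filter, because 2 cells alone had more than 10. Of 9484 genes tested, 8.78% were at least 4-fold higher and 35.6% at least 4-fold lower at E13.5, with a median log2 ratio of -0.78. Of the 6 members tested, *Myod1* was at least 4-fold higher (2.48) and *Lbx1* (-2.74) and *Six4* were lower, while *Pax3* (-0.86), *Myf5* (1.17) and *Eya1* (-1.20) were within 4-fold. The share of members that was lower is close to that of all genes.

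Of all genes tested between the stages, 35.6% were at least 4-fold lower at E13.5 and 8.78% higher. A gene absent at E13.5 needed 3 of 28 E10.5 cells to be tested, and one absent at E10.5 needed 3 of 5 E13.5 cells. The filter thus tilts the counts toward lower genes. Among the partners in the dermomyotome, 11 of 19 tested were at least 4-fold lower at E13.5 and 2 were higher (median -2.80). *Eya2* was lower by this measure (-2.80). *Dach1*, at 559 RPM in E10.5 *Pax3* cells, had 3 reads over the 5 E13.5 cells, *Meox1* had 1, and *Tcf15* and *Meox2* had 0. *Eya4* (-0.41) was within 4-fold. Of 20 tested migration genes 6 were lower, among them *Met*, which stood at 100.3 RPM at E10.5 and at 1 read at E13.5 (0.184 RPM, 0.00465 to 1.02), and 2 higher (median -0.36). Of 15 tested differentiation genes 8 were lower, among them *Myog* (-5.50), and 5 were higher, among them *Vgll2* (4.82), *Tnnt1* (2.99), *Cdkn1c* (2.92) and the nebulin gene *Neb* (2.24), with a median of -2.04. Of 18 tested genes of progenitor maintenance 7 were higher and 4 lower (median 0.06). The higher ones included the Notch receptor and target genes *Notch3*, *Hey1* and *Heyl* and the ligand gene *Jag1*, and the lower ones *Notch1*, *Hes1* and *Rbpj*. *Chodl* passed in 3 of 5 E13.5 and 0 of 28 E10.5 *Pax3* cells. Erythroid genes were higher in 5 of 8 tested, and mesenchymal genes in 5 and lower in 2 of 10, and their part in these differences was not tested. With 5 cells at E13.5, 1 cell can carry a ratio.

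**Figure D5:**
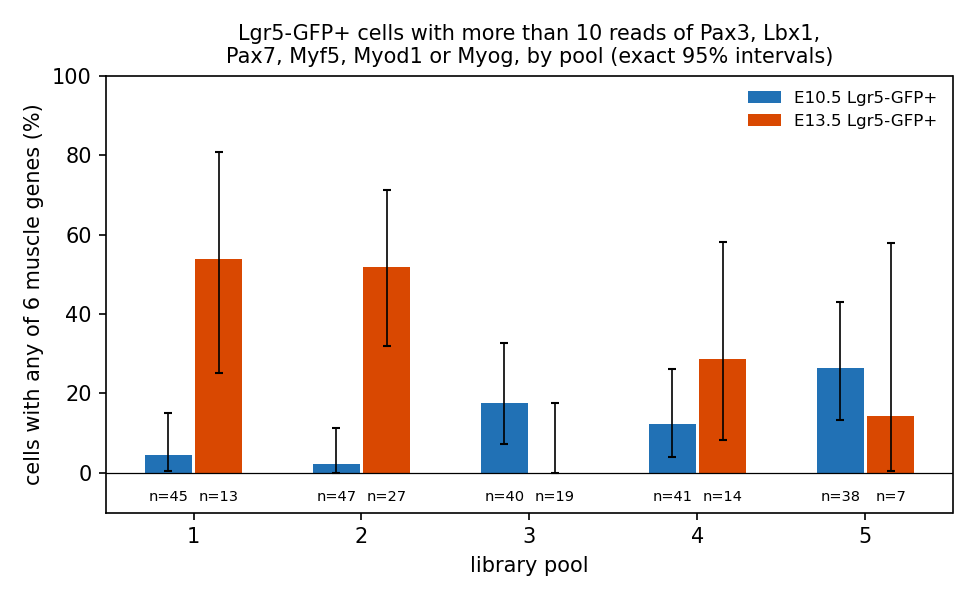
Share of Lgr5-GFP+ cells with more than 10 reads of at least 1 of *Pax3*, *Lbx1*, *Pax7*, *Myf5*, *Myod1* and *Myog* (y axis, percent of cells) in each library pool (x axis) at E10.5 and E13.5, with exact 95% intervals as error bars. At E10.5 the share is highest in pools 3 to 5 (12.2% to 26.3%) and at E13.5 in pools 1 and 2 (53.8% and 51.9%).

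Library pools divided these cells as well. In E10.5 Lgr5-GFP+ cells, *Pax3* passed in 3 of 92 cells of pools 1 and 2 (3.26%, 0.678 to 9.23) and in 22 of 119 of pools 3 to 5 (18.5%, 12.0 to 26.6). *Lbx1* passed in 2 and 19, *Six4* in 1 and 36, *Eya1* in 4 and 26, and *Lgr5* in 12 and 50 of these cells. At E13.5 at least 1 of the 6 genes passed in 21 of 40 Lgr5-GFP+ cells of pools 1 and 2 (52.5%, 36.1 to 68.5) and in 5 of 40 of pools 3 to 5 (12.5%), with *Myod1* in 12 and 4 and *Pax7* in 4 and 1. Of the *Pax3* cells, 24 of 28 at E10.5 and 2 of 5 at E13.5 came from pools 3 to 5, where cells held more detected genes. The labels do not tie pools to sorts or litters, so stage, sort and pool cannot be fully told apart in the change from *Pax3* and *Lbx1* to *Pax7*, *Myf5* and *Myod1*. Within pools 3 to 5, *Pax3* passed in 18.5% of Lgr5-GFP+ cells at E10.5 and in 2 of 40 at E13.5 (5%, 0.611 to 16.9), and *Lbx1* in 15.97% (9.90 to 23.8) and 10% (2.79 to 23.7). Within pools 1 and 2 the shares of *Pax3* were 3.26% at E10.5 and 7.5% at E13.5 (1.57 to 20.4), and those of *Lbx1* 2.17% and 2.5%, so neither gene was lower at E13.5 there. *Myod1* passed in 0 of 92 and 12 of 40 cells of pools 1 and 2 (30%, 16.6 to 46.5). *Myf5* passed there in 1 of 92 cells at E10.5 (1.09%) and in 5 of 40 at E13.5 (12.5%). In pools 3 to 5 *Myf5* passed in 13 of 119 cells at E10.5 (10.9%) and in 3 of 40 at E13.5 (7.5%). The higher share of *Myf5* at E13.5 was thus seen in pools 1 and 2 and not in pools 3 to 5. The lower shares of *Pax3* and *Lbx1* at E13.5 were thus seen in pools 3 to 5 and not in pools 1 and 2.

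The E10.5 *Pax3* cells with and without *Lbx1* (21 and 7 cells) were compared as well. All 21 cells with *Lbx1* were Lgr5-GFP+. Those without it were the 3 bulk cells and further Lgr5-GFP+ cells, among them the cell with 623 reads of *Sox10*. Differences by *Lbx1* and by sort thus cannot be fully told apart in these sums. Of 9164 genes tested, 17.2% were at least 4-fold higher with *Lbx1* and 6.69% lower (median 0.22). Of the 6 members tested, *Lbx1*, by which the cells were divided, and *Myod1* were at least 4-fold higher with it, and 0 were lower. *Myod1* stood at 36.1 RPM with *Lbx1* and at 11 reads without it, all of them in the bulk cell with 596 reads of *Pax3*. *Pax3* (0.34), *Eya1* (0.20), *Myf5* (-0.44) and *Six4* (-0.57) were within 4-fold on the log2 scale. Of 17 dermomyotome partners tested, *Six2* was higher (4.31) and 2 were lower.

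Genes were ranked by their likeness to each member, as Pearson's r of log2(RPM + 1) over all 653 cells among 15254 genes. These values are a description, since cells share pools and depth and most cells hold no read of a member. *Pax3* was most like *Lbx1* (0.755), *Tcf15* (0.679), *Myf5* (0.650), *Eya1* (0.615) and *Eya2* (0.561), and over 293 E10.5 cells with few erythroid and leukocyte genes its r with *Lbx1* was 0.918. Among the genes most like *Lbx1* were *Pax3*, *Tcf15*, *Myf5* (0.584) and *Sim2* (0.575). The genes nearest to *Pax3* by this measure were thus members and their partners in the somite. *Pax7* stood apart, with *Chodl* (0.383), *Chrdl1* (0.378), *Car3* (0.337), *Itga7* (0.309) and *Myf5* (0.308) nearest and an r of 0.104 with *Pax3*. *Myod1* was most like *Myog* (0.686), the homeobox gene *Pitx3* (0.626), the fusion gene *Mymx* (0.556) and *Tnnt1* (0.533). *Six4* was most like *Tcf15* (0.375), *Pax3* (0.367) and *Efna5* (0.335).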

How the data were processed

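Liver cells of E10.5 and E13.5 embryos were sequenced singly with Smart-seq2, and each deposited sample was 1 cell. According to the submitters' processing notes and the methods, the authors aligned reads to GRCm38 with spike-in sequences by STAR 2.6.0c and counted uniquely aligned reads per gene with featureCounts of Subread 1.6.2 on the Ensembl annotation. The deposited counts are raw reads per gene and were used as deposited. A normalised table, whose values the authors deposited as a score after batch correction made with Scanpy 1.3.3 among other tools, was not used. Of 54195 genes, 54042 were named from the GENCODE annotation of the same build, and 25903 were listed at 0 in every cell, among them *Myf6*, *Acta1*, *Actc1*, *Tnnc1*, *Msc* and *Cdh15*. No column was left unmapped (0 of the table).

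A gene passed in a cell with more than 10 reads. Levels are the reads of a gene in a set of cells per 1000000 reads of that set (RPM), and RPKM also by the length of the merged exons. Ratios were computed for genes with more than 10 reads in at least 3 of the cells compared, with a floor of 3 reads per set, and 4-fold was the limit for higher or lower. A cell carried a list when at least 3 of its genes passed. Groups were taken from the stage and sort of the labels. With 1 sample per group there was no test, and differences are described with 95% exact binomial or Poisson intervals. Depth was examined by thinning cells to 100000 reads, at which a gene passed with at least 2 reads. Named genes are the members, *Lgr5*, genes of the lists, for each member the 10 genes most correlated with it (more than 10 reads in at least 5 cells), and for each contrast genes among the 10 largest ratios that passed in at least 50% of the cells of the higher set. The members and lists were chosen with earlier results of these data known. Values of some partner genes are not reported here. Calculations used Python 3.11.15 with numpy 2.4.6, pandas 2.3.3, scipy 1.17.1 and matplotlib 3.10.9 and were tested on simulated data. The alternatives changed the read limit, the filter, the mean of cells, the pools and the cells that enter.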

Additional observations from a re-analysis of the deposited data

How the results depend on the processing

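Of 149 alternatives over 13 values, 129 moved a value by less than its 95% interval or a gene count by less than 1.5 times, and 20 moved it further. No paired analysis was possible because cells carry no shared replicate numbers and no test was made. Counting any read as a pass, the share of E10.5 cells with *Pax3* was 14.5%, of E13.5 cells 7.11%, of E10.5 *Pax3* cells with *Lbx1* 41.7% and with *Myf5* or *Myod1* 36.7%, and of Lgr5-GFP+ *Pax3* cells with *Lgr5* 57.5%. Without pools 3, 4 and 5 the E10.5 shares were 2.29% for *Pax3*, 50% for *Lbx1* and 25% for *Myf5* or *Myod1*, the share of E10.5 Lgr5-GFP+ *Pax3* cells with *Lgr5* was 0%, and the E13.5 share with *Lbx1* was 0%. The shares of *Pax3* cells in that setting rest on 3 Lgr5-GFP+ cells and 1 bulk cell at E10.5, and on 3 cells at E13.5. Without pools 1 and 2 the E10.5 share with *Pax3* was 10.04%. The 2 E13.5 *Pax3* cells left (100%) had *Lbx1* and a commitment gene.

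Leaving out 1 pool at a time gave ranges of 5.01% to 8.28% for *Pax3* at E10.5, 64.7% to 80% for *Lbx1*, 0% to 0% for *Pax7*, 47.1% to 69.6% for *Myf5* or *Myod1* and 20% to 35% for *Lgr5*. At E13.5 the ranges were 1.57% to 2.67% for *Pax3*, 0% to 66.7% for *Lbx1* (0% without pool 4), 25% to 66.7% for *Pax7* and 66.7% to 100% for *Myf5* or *Myod1* (100% without pool 2). Genes 4-fold apart numbered 501 to 568 for *Pax3* cells over others (535), 3495 to 5230 between stages (4207), 1923 to 2992 with and without *Lbx1* (2188) and 3825 to 4914 between sorts (4359). Without the filter they numbered 2830, 6807, 4724 and 6840, since genes with few reads then enter. Without cells of at least 3 erythroid genes, chosen after seeing the data, the E13.5 share with *Pax3* was 5.17%, since most E13.5 cells left out lack *Pax3*, and the E10.5 share 7.85%. The other alternatives chosen then left out the neural crest cells or kept Lgr5-GFP+ cells alone (506 genes). With 5 *Pax3* cells at E13.5, intervals of shares there are wide.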
